A study of Homo sapiens with 3 samples.

Results

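The genes described here are 41 that build, bind or shorten the poly(A) tail of messenger RNA: 9 of the cleavage and polyadenylation specificity factor and its partners, 4 of the cleavage stimulation factor, 5 of cleavage factors I and II, 5 poly(A) polymerases, 3 poly(A)-binding proteins, 6 scaffold and module subunits of the CCR4-NOT complex, 7 deadenylase enzymes or their partners, and 2 TOB adaptors. They were listed by name, and not by their values. A probe was found for 40 of the 41 through its RefSeq accession, out of 22439 genes named on the array, and CNOT6 had no matched probe. Of the 40 genes, 37 were well above background on every array by the criterion of the scanner software. CPSF2, TENT4B and CNOT9 were not well above background on any array and were not compared.

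RNA came from TK-10, an established human renal carcinoma line, after 48 h with vehicle, 0.1% DMSO, or with cordyceps at 750 μg/ml by its label, or with sunitinib at 10 μM, a receptor tyrosine kinase inhibitor. The paper instead names cordycepin, a nucleoside first found in Cordyceps fungi, at another dose, and which of these the cells received cannot be read from the data. That array is called the cordyceps array here. By the labels, the medium in all conditions also held zinc sulfate at 16.7 μM, troglitazone at 10 μM, nicotinamide at 10 mM, 10% serum and antibiotics. There was 1 single-colour array per condition, so no test across arrays was possible, no p-value is given, and both comparisons use the same DMSO array. "Higher" and "lower" therefore describe these arrays.

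In the nucleus, the specificity factor reads the AAUAAA hexamer of a new transcript and cuts it, helped by the stimulation factor, which binds GU-rich RNA downstream of the cut, and by cleavage factors I and II. A poly(A) polymerase then adds the tail, which poly(A)-binding proteins coat. In the cytoplasm, PAN2-PAN3 and CCR4-NOT remove the tail again, which for most messages opens the way to decay, and PARN trims the tails of many small RNAs. Cordycepin is 3′-deoxyadenosine, and it is known as background to this gene set because its triphosphate ends a growing tail when a polymerase inserts it.

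Each array held 62976 spots on 1 shared slide, read in 1 scan, and no spot was saturated. Signals are the background-subtracted spot intensities of the scanner software, and a level is the log2 signal minus the log2 of the array's 75th percentile, which was a signal of 165 for DMSO, 138 for cordyceps and 78.2 for sunitinib. A log2 ratio is the difference of 2 levels. The technical limit given with it is the 95% limit of the combined spot errors that the software reports, and it leaves out differences between cultures, RNA preparations and hybridizations. A bright streak covered 601 spots of the cordyceps array, and 0 of the 49 member probes lay in it. Of the 11 renal and carcinoma markers with a probe, 9 were well above background on each array, including PAX8, KRT8, KRT18, KRT19 and EPCAM, whereas CDH1 and CA9 were not. Among markers of other cells, COL1A1, DCN and PDGFRB of fibroblasts, VWF and CDH5 of endothelium and CD14 of myeloid cells were well above background on every array. COL1A2, PECAM1 and CD3E were not well above background on any. Relative to each array's 75th percentile, the 4 fibroblast markers summed to 40.9 with DMSO, 12.8 with cordyceps and 12.2 with sunitinib. Most of the DMSO sum was COL1A1 (32.2, 7.75 and 4.92), whereas PDGFRB was highest with sunitinib (4.29, 3.77 and 6.80). DCN was at 4.30, 1.23 and 0.40. The 3 endothelial markers summed to 1.27, 1.16 and 1.21, with VWF at 0.59, 0.53 and 0.39 and CDH5 at 0.66, 0.58 and 0.77. The signal of CD14 was 4.21, 2.71 and 1.48. The part of these markers in the ratios below was not tested, and in bulk RNA fewer cells of a type and less RNA per cell cannot be told apart.

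RefSeq promoter windows, 250 bases before to 50 bases after the annotated start on GRCh38.p14, were found for 35 of the 41 genes. Those of 7 genes are printed below, because these genes hold the highest or lowest ratios of a comparison or form the pair that differed most. Capitals mark copies, on either strand, of the letters of the motifs below. The GC box was searched as GGGCGG and the E box as CACGTG. For an ETS site the letters were CGGAAG, and for an E2F site TTCCCGC. The CCAAT box was searched by the letters of its name, and the TATA box as TATAAA. The E2F and GC box letters can share bases, and such a stretch counts for both.
CSTF3, chr11:33161431-33161730, minus strand: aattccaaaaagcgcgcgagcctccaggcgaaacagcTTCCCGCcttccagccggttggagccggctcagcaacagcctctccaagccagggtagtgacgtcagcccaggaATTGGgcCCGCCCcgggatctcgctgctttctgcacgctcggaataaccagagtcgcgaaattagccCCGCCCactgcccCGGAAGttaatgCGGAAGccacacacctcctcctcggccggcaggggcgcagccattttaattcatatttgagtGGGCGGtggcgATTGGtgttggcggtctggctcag
PAPOLA, chr14:96502126-96502425, plus strand: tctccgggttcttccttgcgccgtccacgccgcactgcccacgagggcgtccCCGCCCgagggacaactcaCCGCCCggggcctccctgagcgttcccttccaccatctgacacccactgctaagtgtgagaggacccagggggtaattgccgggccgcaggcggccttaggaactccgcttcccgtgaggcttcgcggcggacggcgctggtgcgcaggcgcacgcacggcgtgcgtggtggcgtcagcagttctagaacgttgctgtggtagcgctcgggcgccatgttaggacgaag
TENT2, chr5:79612191-79612490, plus strand: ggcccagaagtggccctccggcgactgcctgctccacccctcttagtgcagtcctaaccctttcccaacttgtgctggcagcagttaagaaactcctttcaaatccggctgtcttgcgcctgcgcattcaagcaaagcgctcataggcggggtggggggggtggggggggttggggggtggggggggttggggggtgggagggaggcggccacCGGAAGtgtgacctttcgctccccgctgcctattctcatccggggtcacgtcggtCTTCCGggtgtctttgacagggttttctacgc
CLP1, chr11:57657512-57657811, plus strand: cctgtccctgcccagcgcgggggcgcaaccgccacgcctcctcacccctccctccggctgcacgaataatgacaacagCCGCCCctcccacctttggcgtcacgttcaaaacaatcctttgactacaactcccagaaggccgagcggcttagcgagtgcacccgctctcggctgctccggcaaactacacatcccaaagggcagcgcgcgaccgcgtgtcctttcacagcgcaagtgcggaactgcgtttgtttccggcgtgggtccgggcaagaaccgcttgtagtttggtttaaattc
WDR33, chr2:127811122-127811421, minus strand: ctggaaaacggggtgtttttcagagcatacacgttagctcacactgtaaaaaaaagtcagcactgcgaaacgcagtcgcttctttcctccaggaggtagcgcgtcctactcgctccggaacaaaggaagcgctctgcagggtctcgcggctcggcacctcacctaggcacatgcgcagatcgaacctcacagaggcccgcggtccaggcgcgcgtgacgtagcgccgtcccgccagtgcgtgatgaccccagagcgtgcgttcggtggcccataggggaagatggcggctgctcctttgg
CSTF2, chrX:100820141-100820440, plus strand: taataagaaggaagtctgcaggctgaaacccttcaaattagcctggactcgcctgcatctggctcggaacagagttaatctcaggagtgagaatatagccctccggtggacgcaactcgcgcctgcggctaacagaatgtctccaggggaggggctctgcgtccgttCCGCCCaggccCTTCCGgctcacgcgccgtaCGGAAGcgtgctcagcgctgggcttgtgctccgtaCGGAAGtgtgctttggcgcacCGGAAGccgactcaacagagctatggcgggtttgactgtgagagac
CSTF2T, chr10:51699546-51699845, minus strand: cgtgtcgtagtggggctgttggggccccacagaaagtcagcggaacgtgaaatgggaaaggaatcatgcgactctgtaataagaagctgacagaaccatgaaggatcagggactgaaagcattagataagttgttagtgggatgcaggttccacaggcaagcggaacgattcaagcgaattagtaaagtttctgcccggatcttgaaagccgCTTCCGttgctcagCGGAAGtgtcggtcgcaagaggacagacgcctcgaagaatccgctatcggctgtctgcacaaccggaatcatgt
The CSTF3 window holds GC box, CCAAT box, ETS and E2F letters, whereas the WDR33 window holds none. Both CSTF2 windows, that of CSTF2 and that of its copy CSTF2T, hold the ETS letters CGGAAG, 4 times in the former and 2 times in the latter. A match is a run of letters and says nothing of whether a factor binds there.

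Features that the choice of genes did not use were counted in their promoter windows, beside other windows. CGGAAG was found in 18 of 35 (51.4%), against 19.9% of 27305 RefSeq promoter windows and 31.0% of the 11501 windows of genes compared on these arrays. TATAAA, the TATA box, was in 0 of 35, against 12% of all windows and 6.64% of those of compared genes. GGGCGG was in 24 (68.6%, against 44.6% and 66.8%), CCAAT in 15 (42.9%, against 35.7% and 36.4%), TTCCCGC in 5 (14.3%, against 6.56% and 9.76%) and CACGTG in 1 (2.86%, against 7.43% and 9.79%). Median GC content was 63.0%, with 26 CpG dinucleotides per window, against 58.3% and 14 in all windows and 64.7% and 25 in those of compared genes. Thus GC content and GC boxes lay near those of other compared genes, and among the motifs the ETS letters had the share farthest from theirs. These are descriptions with no test.

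On the cordyceps array, the tail machinery lay close to the DMSO array. None of the 37 genes was more than 2-fold higher or lower, against 2.96% higher and 2.75% lower among all 14790 genes compared. At 1.5-fold, 1 gene was higher (CSTF3) and 1 lower (TENT2), which is 2.70% each, against 8.67% and 8.90% of all genes. Beyond the technical limit, 2 were higher (CSTF3 and PAPOLA, 5.41%) and 3 lower (TENT2, CPSF6 and PAN3, 8.11%), against 15.0% and 13.5% of the 13034 genes measured on both arrays. The median log2 ratio of the 37 was 0.05, with all genes at 0.00, and its sign turned negative with quantile normalization, normexp background correction and the unscaled series matrix. Their SD was 0.25, against 0.58 for all measured genes and 0.51 for the 3800 genes whose DMSO level lay between the members' quartiles, of which 3.87% were past 2-fold.

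**Figure D1:**
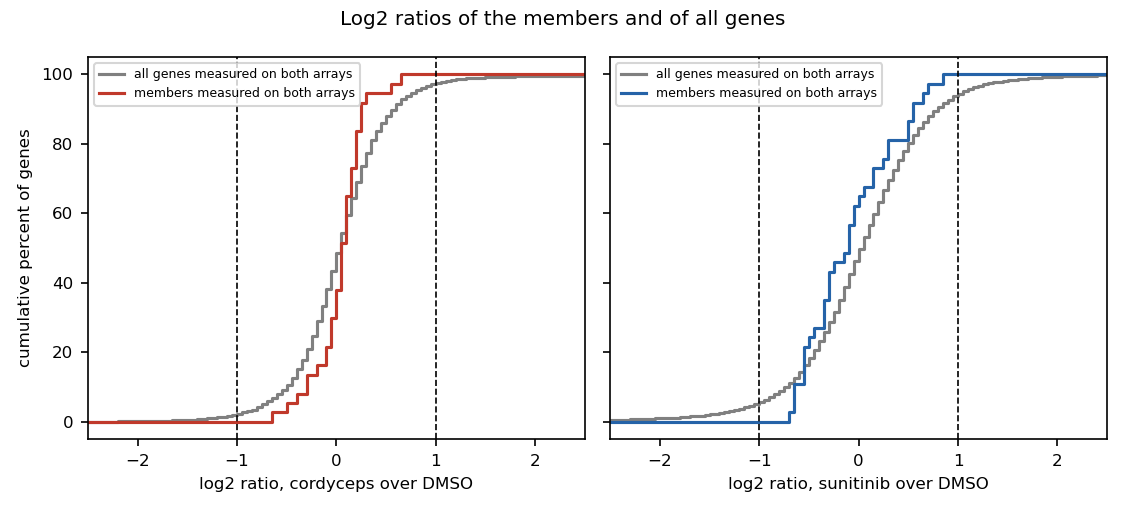
Cumulative percent of genes (vertical axis) against log2 ratio to the DMSO array (horizontal axis), for cordyceps on the left and sunitinib on the right. Grey lines are all genes measured on both arrays, coloured lines the 37 members, dashed lines mark 2-fold, and in neither panel does a member pass them.

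CSTF3, the subunit that holds the cleavage stimulation factor together, was the highest. Its brighter probe gave a signal of 904 with DMSO, 1171 with cordyceps and 388 with sunitinib, or levels of 2.46, 3.09 and 2.31. The cordyceps array was thus the highest of the 3, at a log2 ratio of 0.63 with a technical limit of 0.40. A second probe for the gene gave 0.56. PAPOLA, the main nuclear poly(A) polymerase, followed with signals of 701, 834 and 267 and levels of 2.09, 2.60 and 1.77. Its cordyceps ratio of 0.51 exceeded its limit of 0.40, and it, like that of CSTF3, stayed positive under all 12 alternative settings, though both came within their limits in the unscaled series matrix (0.37 for CSTF3 and 0.25 for PAPOLA).

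The lowest ratio belonged to TENT2, a cytoplasmic poly(A) polymerase also known as GLD2. Signals of 371, 196 and 156 with DMSO, cordyceps and sunitinib correspond to levels of 1.17, 0.51 and 1.00, so the cordyceps array stood below the other 2. The ratio was −0.66 with a limit of 0.41. CPSF6, a subunit of cleavage factor I, which binds upstream of the cut and takes part in the choice between poly(A) sites, had levels of 1.69, 1.18 and 1.89 (signals of 530, 312 and 291) and a ratio of −0.51 with a limit of 0.40. PAN3, the RNA-binding partner of the PAN2 nuclease, had levels of 0.51, 0.06 and 0.40 (signals of 234, 144 and 103) and a ratio of −0.44 with a limit of 0.42. A second PAN3 probe was too dim on the treated arrays to give a ratio. All 3 ratios stayed negative under the 12 alternatives, and that of TENT2 stayed beyond its limit. CPSF6 came within its limit under array median scaling (−0.29). PAN3 did so in 4 settings, array median scaling (−0.22), the mean of its probes (−0.22), normexp (−0.37) and the streak left out (−0.40). The mean of the PAN3 probes counts the dim second probe as a ratio of 0, so it is no second measurement.

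The next genes in each direction were within their limits. CPSF3, the endonuclease that makes the cut, had a ratio of 0.29, from signals of 704 with DMSO and 721 with cordyceps. CSTF2, which binds the GU-rich RNA, was at 0.24 (465 and 459), and FIP1L1, which brings in the polymerase, at 0.20 (1176 and 1135). RBBP6, needed to activate cleavage, was at −0.34 (129 and 85.6), as was CNOT2, a subunit of the NOT module (4694 and 3102). RBBP6 had 1 probe, and which of its transcripts the probe reads, here and with sunitinib, was not determined. Of the remaining 27 genes the ratios ran from −0.25 (CPSF7) to 0.20 (CNOT6L).

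By role, the cordyceps medians were near 0. The cytoplasmic PABPC1 and PABPC4 and nuclear PABPN1 were at 0.20, 0.18 and 0.08, all higher but within their limits, all negative in the unscaled series matrix, and PABPN1 also negative with quantile normalization and normexp. Among the poly(A) polymerases, PAPOLG was at 0.09 and TENT4A at 0.06, so that PAPOLA and TENT2 stood on opposite sides of them. The 5 CCR4-NOT scaffold and module subunits measured ran from −0.34 to 0.14 (CNOT1, the scaffold itself), none beyond its limit. Of the 6 deadenylases or partners measured, only PAN3, a partner, exceeded its limit. TOB1 and TOB2, which tie CCR4-NOT to poly(A)-binding protein, were at 0.14 and 0.01.

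**Figure D2:**
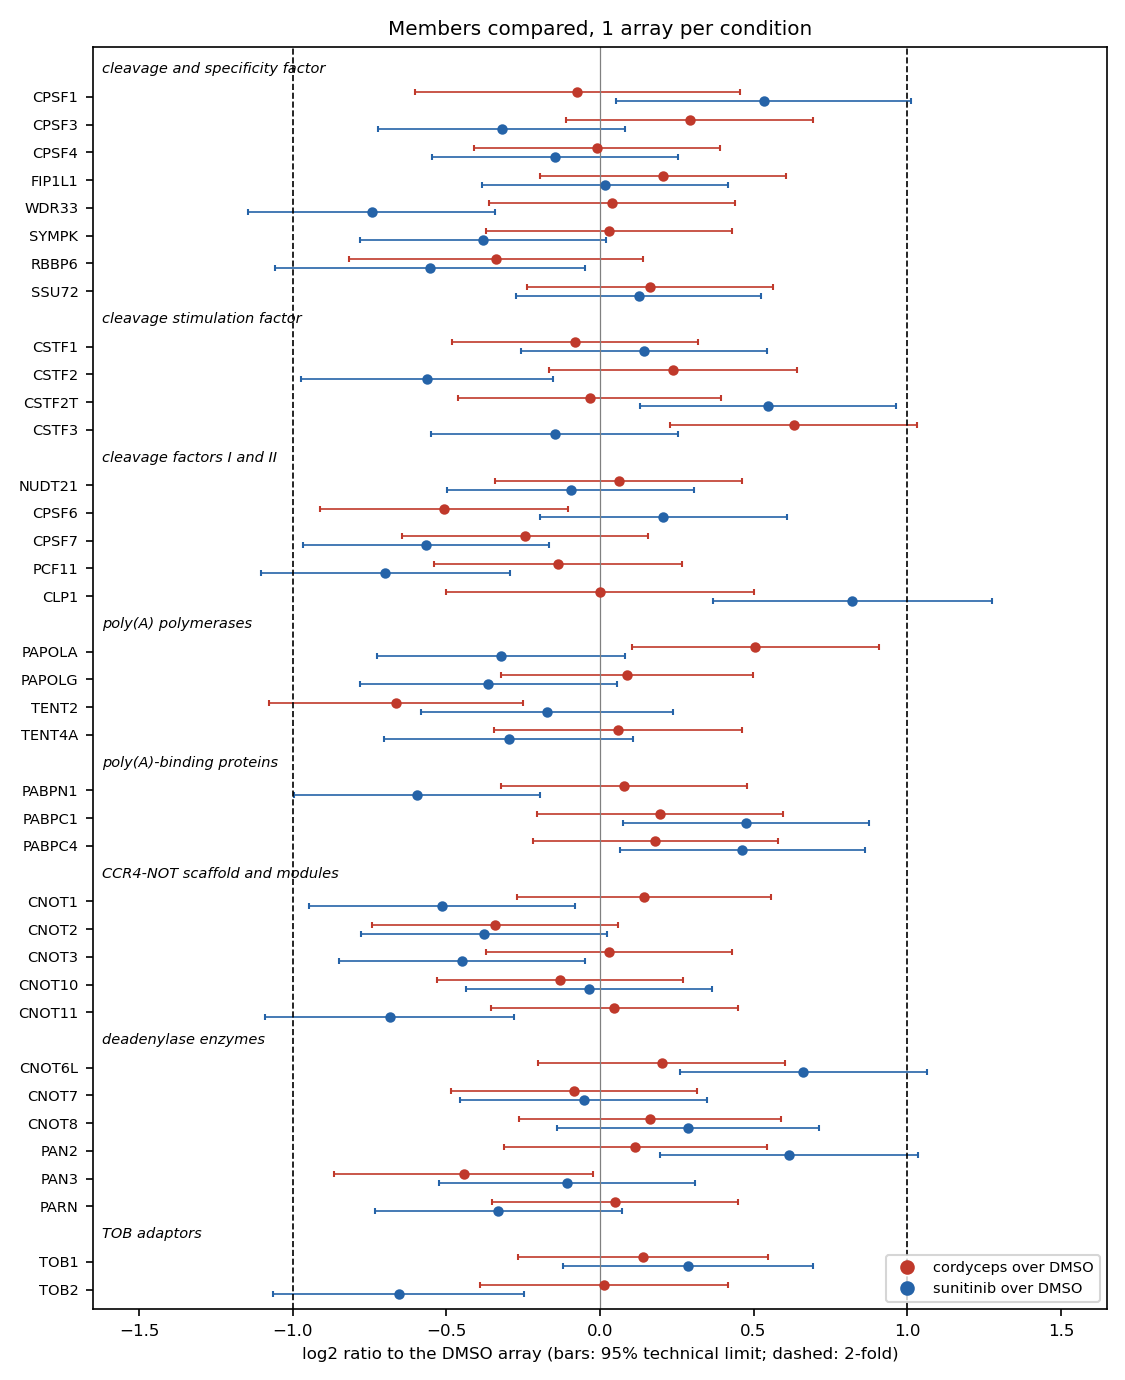
Log2 ratio to the DMSO array (horizontal axis) of each of the 37 genes compared, grouped by role, for cordyceps (red) and sunitinib (blue). Bars are 95% technical limits from the reported spot errors, 1 array per condition, and dashed lines mark 2-fold; CSTF3 and TENT2 are the red extremes at 0.63 and −0.66, CLP1 and WDR33 the blue ones at 0.82 and −0.74.

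On the sunitinib array the same genes lay farther apart. Again none of the 37 was more than 2-fold higher or lower, against 6.50% higher and 6.44% lower among 14918 genes compared, although with the arrays scaled to their median WDR33, PCF11 and CNOT11 passed 2-fold lower. At 1.5-fold, 3 were higher (CLP1, CNOT6L and PAN2, 8.11%) and 5 lower (WDR33, PCF11, CNOT11, TOB2 and PABPN1, 13.5%), against 15.5% and 15.4%. Beyond the technical limit, 7 were higher (18.9%) and 10 lower (27.0%), against 22.7% and 21.7% of the 13005 genes measured on both arrays. The shares beyond the limit were thus near those of all genes. In all, 13 of the 37 were higher and 24 lower, beside 6767 higher and 7231 lower among the 14918 genes compared. The median of the 37 was −0.15, where all genes were at 0.00 and the 3787 genes of similar DMSO level at −0.06. Their SD was 0.44, against 0.69 for all measured genes and 0.67 for the 3787 genes of similar DMSO level, of which 10.4% were past 2-fold.

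In the cleavage machinery, WDR33, a gene for the subunit that reads the hexamer together with CPSF4, was the lowest by its brightest probe. The signals of its brightest probe were 1193, 1027 and 339 with DMSO, cordyceps and sunitinib, and the levels 2.86, 2.90 and 2.12, so that the sunitinib array stood alone. Its ratio was −0.74 with a limit of 0.40. PCF11, which links cleavage to RNA polymerase II, had levels of 2.13, 1.99 and 1.43 (signals of 719, 547 and 210) and a ratio of −0.70 with a limit of 0.41. Its partner in cleavage factor II, CLP1, an RNA kinase that also serves in tRNA splicing, was the highest of all 37. CLP1 had levels of −0.89, −0.89 and −0.07, from signals of 88.7, 74.3 and 74.5, and a ratio of 0.82 with a limit of 0.45. The subunits of cleavage factor II were therefore at opposite ends of the set on the sunitinib array. The CLP1 ratio, like those of the other 6 genes higher beyond their limits, became negative in the unscaled series matrix.

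Other cleavage genes beyond their limits were RBBP6 (−0.55), CPSF7 (−0.57) and CSTF2 (−0.56) on the lower side, and CPSF1 (0.53) and CSTF2T (0.55) on the higher. CPSF1, the large scaffold of the specificity factor, was dim, with signals of 79.5, 63.3 and 54.6 and levels of −1.05, −1.12 and −0.52. The endonuclease CPSF3 was at −0.32, the scaffold SYMPK at −0.38 and CPSF4 at −0.15, all within their limits. FIP1L1 (0.02), SSU72, a phosphatase of the RNA polymerase II tail (0.13), and CSTF1 (0.14) were higher, within their limits and negative when the arrays were scaled to their medians, with normexp and in the unscaled series matrix.

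All 4 poly(A) polymerases measured were lower on the sunitinib array, none beyond its limit. PAPOLG was at −0.36, PAPOLA at −0.32, TENT4A at −0.30 and TENT2 at −0.17. The poly(A)-binding proteins went in both directions. PABPN1, the nuclear protein that controls tail length, had levels of 5.44, 5.52 and 4.85 (signals of 7165, 6331 and 2254) and a ratio of −0.59 with a limit of 0.40. The cytoplasmic PABPC1 and PABPC4 were higher, at 0.47 and 0.46 with limits of 0.40, though PABPC1 became negative with quantile normalization and both did in the unscaled series matrix. PABPC1 signals were 97487, 93479 and 64333, and those of PABPC4 5887, 5588 and 3857, so the sunitinib array had the lowest signal but the highest level of each. A second PABPC4 probe, dim on the DMSO and cordyceps arrays, had a signal of 22.4 with sunitinib, close to the lowest detected signal there, 18.3. Set against the lowest detected DMSO signal, 18.2, it was 2.59-fold higher, a log2 bound of 1.38 with a technical limit of 1.01.

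**Figure D3:**
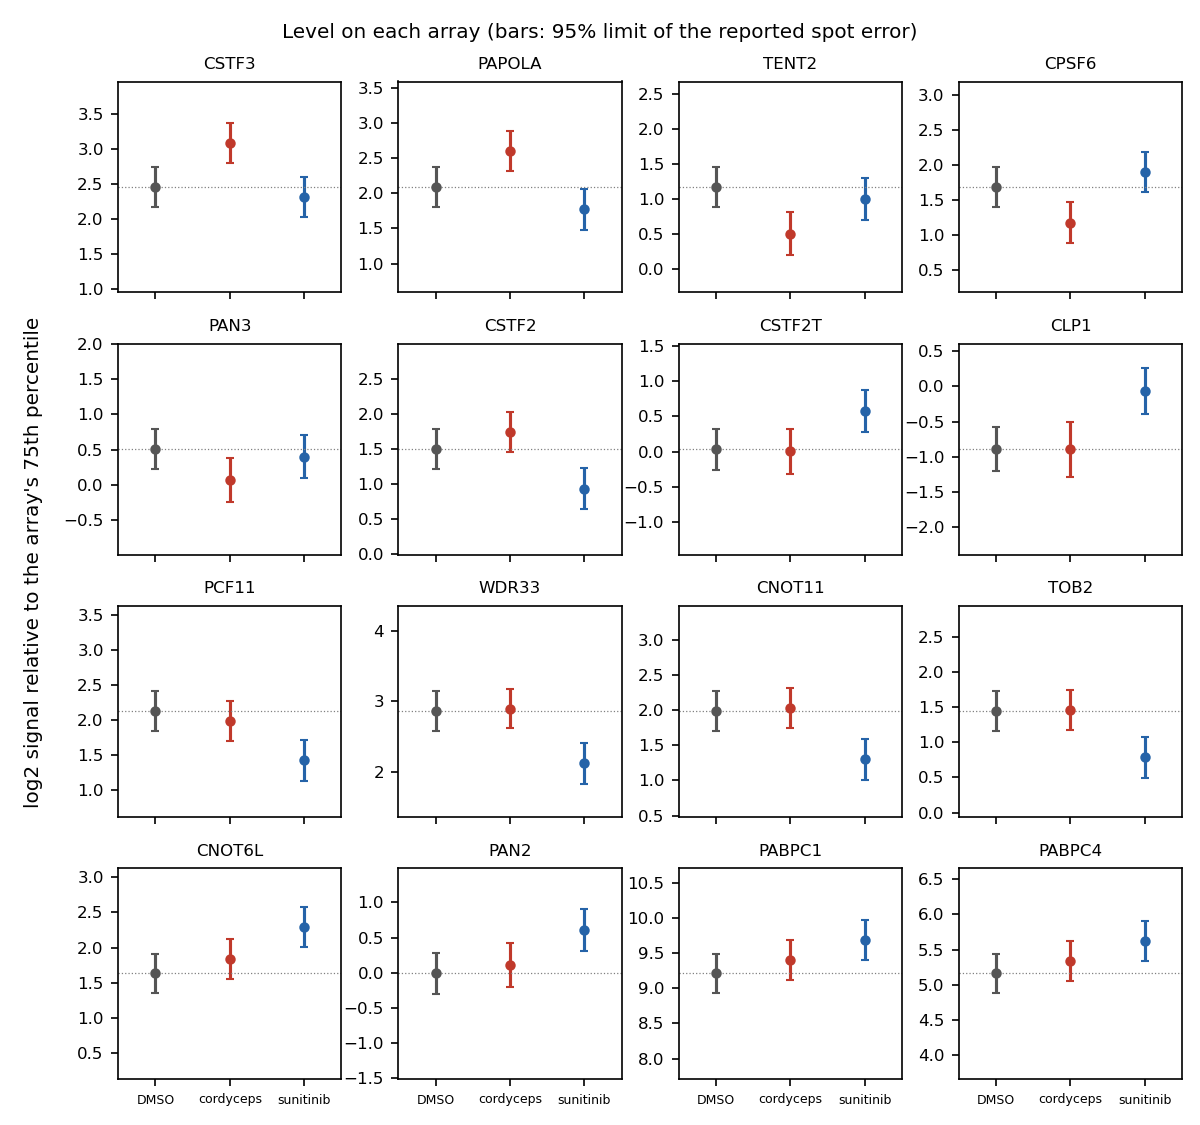
Level on each array (vertical axis, log2 signal relative to the array's 75th percentile) of 16 genes, for DMSO (grey), cordyceps (red) and sunitinib (blue), 1 array each. Bars are the 95% limit of the reported spot error and the dotted line is the DMSO level; CSTF3 stands above it with cordyceps (3.09 against 2.46) and WDR33 below it with sunitinib (2.12 against 2.86). Vertical axes differ in position but not in length.

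In the deadenylation machinery, all 5 measured subunits of the CCR4-NOT scaffold and modules were lower with sunitinib, with a median of −0.45, and they stayed lower under all 12 alternatives. CNOT11 (−0.68), CNOT1 (−0.51) and CNOT3 (−0.45) exceeded their limits, whereas CNOT2 (−0.38) and CNOT10 (−0.04) did not. The share beyond the limit was 60.0%, of only 5 genes, against 21.7% of all genes. CNOT11, which with CNOT10 forms the module at the start of the CNOT1 scaffold, had levels of 1.98, 2.03 and 1.30 (signals of 651, 563 and 193). Its probe was printed in 10 spots, which ran from 607 to 700 with DMSO, from 522 to 615 with cordyceps and from 174 to 207 with sunitinib. The SD over the spots was 0.07 on the log2 scale on each array, far under the difference of levels, though it covers only the error within an array. The CNOT10 probe, also in 10 spots, had spot SDs of 0.03 to 0.05.

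The 6 deadenylases or partners measured ran from −0.33 to 0.66. CNOT6L, a nuclease of the complex, had levels of 1.63, 1.83 and 2.29 (signals of 510, 491 and 383) and a sunitinib ratio of 0.66 with a limit of 0.40. A second CNOT6L probe gave 0.33. PAN2, the catalytic subunit of PAN2-PAN3, had levels of −0.01, 0.10 and 0.60 (signals of 163, 148 and 119) and a ratio of 0.61 with a limit of 0.42. Its partner PAN3 was at −0.11, and PARN at −0.33, both within their limits. TOB2 had levels of 1.44, 1.46 and 0.79 (signals of 447, 378 and 135) and a ratio of −0.66 with a limit of 0.41.

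Paralogues among the genes were set against each other by the difference of their ratios, in 6 pairs and both comparisons, 12 differences in all, which a change of scale between arrays leaves as they are. Of these, 3 exceeded the technical limit, all on the sunitinib array. Pairs of other genes were not counted, so this does not show that paralogues differed more than any 2 genes. CSTF2 and CSTF2T, an intronless copy of it, differed by −1.11 (95% technical interval −1.70 to −0.53). The signals were 465, 459 and 149 for CSTF2 and 169, 138 and 117 for CSTF2T, so that levels of CSTF2 were 1.5, 1.74 and 0.93 and those of CSTF2T 0.04, 0.00 and 0.58. The former was lowest and the latter highest on the sunitinib array. TOB1 minus TOB2 was 0.94 (0.37 to 1.52), with TOB1 at 0.29 from signals of 340, 314 and 197, a ratio that was negative under array median scaling and in the unscaled series matrix. CPSF6 minus CPSF7, alternative large subunits of cleavage factor I, was 0.77 (0.20 to 1.34), with CPSF6 at 0.21, which turned negative under the same settings and normexp, and CPSF7 at −0.57 from signals of 3175, 2244 and 1019.

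The other differences were within their limits, which does not show that the paralogues were alike. PABPC1 and PABPC4 differed by 0.01 with cordyceps (−0.55 to 0.58) and by 0.01 with sunitinib (−0.56 to 0.58). PAPOLA minus PAPOLG, whose signals were 307, 273 and 113, was 0.42 with cordyceps (−0.15 to 0.99) and 0.04 with sunitinib (−0.54 to 0.62). CNOT7 minus CNOT8, alternative nucleases of CCR4-NOT, was −0.25 (−0.83 to 0.34) and −0.34 (−0.93 to 0.25), from signals of 978, 772 and 448 for CNOT7 and 195, 183 and 113 for CNOT8. On the cordyceps array, CSTF2 minus CSTF2T was 0.27 (−0.32 to 0.86), CPSF6 minus CPSF7 −0.26 (−0.83 to 0.31) and TOB1 minus TOB2 0.13 (−0.45 to 0.70). TENT4A could not be set against TENT4B, nor CNOT6L against CNOT6. Whether a probe also binds the paralogue's transcript was not tested.

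**Figure D4:**
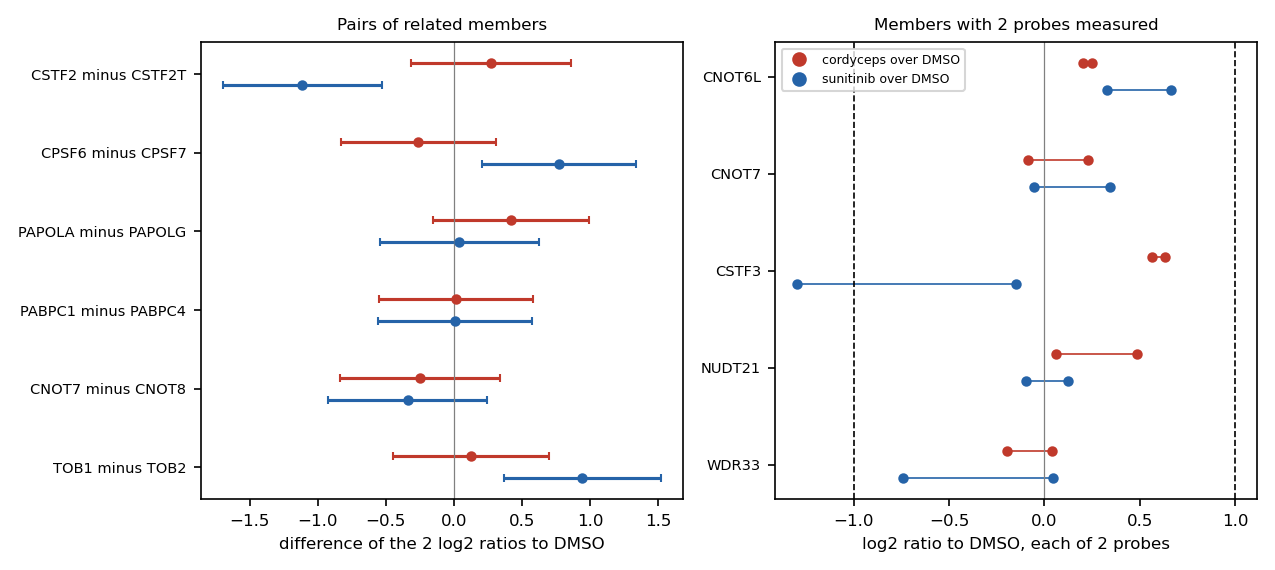
Left, difference between the log2 ratios of paralogues (horizontal axis) with 95% technical intervals, for cordyceps (red) and sunitinib (blue). Right, log2 ratio to DMSO of each of the 2 measured probes of 5 genes, joined by a line, with dashed lines at 2-fold; CSTF2 minus CSTF2T (−1.11) and the CSTF3 probes (−0.15 and −1.30) lie farthest apart, both with sunitinib.

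Several genes had more than 1 probe, 7 in all, and for 5 of them 2 probes were measured on both arrays. The CSTF3 probes differed most. With sunitinib, the probe for NM_001326 had a ratio of −0.15 and that for NM_001033505 a ratio of −1.30, from signals of 342 with DMSO, 423 with cordyceps and 66.1 with sunitinib. The difference of 1.15 exceeded its limit of 0.60, and the second probe alone was past 2-fold. CSTF3 is known to give a short transcript by polyadenylation within an intron, and whether the second probe reads that transcript was not determined. With cordyceps the 2 probes, at 0.63 and 0.56, differed by 0.07, within the limit of 0.57.

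WDR33 also depended on the probe. With sunitinib its brightest probe, for NM_001006622, was at −0.74 and that for NM_001006623 at 0.05, a difference of 0.79 with a limit of 0.63. The other 2 WDR33 probes, that for NM_018383 among them, were too dim for a ratio. Which WDR33 transcripts the probes read, and whether these encode the subunit that reads the hexamer, was not determined. The probes of CNOT7 (−0.05 and 0.34), NUDT21, the cleavage factor I subunit that binds UGUA (−0.10 and 0.12), and CNOT6L (0.66 and 0.33) differed by less than their limits with sunitinib. With cordyceps, those of CNOT7 were at −0.08 and 0.23, those of NUDT21 at 0.06 and 0.48 and those of CNOT6L at 0.20 and 0.25. Their differences were again less than their limits. The dimmer NUDT21 probe alone, at 0.48, exceeded its own technical limit of 0.40.

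Genes that work beside this machinery were counted in lists written by hand. Among 32 compared of the other 3′-end processing and termination factors, 0 were more than 2-fold higher with cordyceps and 1 lower, SRSF3, a splicing factor that also takes part in the choice of poly(A) sites. SRSF3 signals were 5596 with DMSO, 2157 with cordyceps and 554 with sunitinib, giving ratios of −1.12 and −2.26, and a second probe gave −1.26 and −2.47. With sunitinib, 0 of the 32 were higher and 2 lower, SRSF3 and the related SRSF7, whose signals of 969, 569 and 55.7 gave ratios of −0.51 and −3.05. By the brightest probe of each gene, both SRSF3 ratios and the sunitinib ratio of SRSF7 are farther from 0 than any ratio of the 37 genes. With sunitinib, the second CSTF3 probe, at −1.30, and the bound of the dim second PABPC4 probe, 1.38, lie farther from 0 than the cordyceps ratio of SRSF3. The shares past 2-fold lower, 3.13% with cordyceps and 6.25% with sunitinib, are near those of all genes, 2.75% and 6.44%. The medians of the list were −0.07 and −0.15.

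Of 15 compared among the other deadenylases, nucleotidyltransferases and poly(A)-binding proteins, 2 were more than 2-fold higher with cordyceps (13.3%, against 2.96% of all genes) and 0 lower (against 2.75%). They were TUT1, whose probe lay in the bright streak and is not read here, and PABPN1L, a relative of PABPN1, with signals of 334, 658 and 745. PABPN1L ratios were 1.24 with cordyceps and 2.23 with sunitinib. With sunitinib, ANGEL1 was also past 2-fold higher (1.47), and MTPAP, the mitochondrial poly(A) polymerase, was lower (−1.04), which makes 13.3% higher and 6.67% lower, against 6.50% and 6.44% of all genes. Among factors that bring deadenylases to messages or regulate the tail, 1 of 32 compared (3.13%, against 2.96% of all genes) was higher with cordyceps and 0 lower. It was PAIP2B, an inhibitor of poly(A)-binding protein, from signals of 34.7 and 93.9 (ratio 1.69), and a second probe was too dim to be read. With sunitinib, 1 of 33 was higher and 1 lower, 3.03% each, against 6.50% and 6.44% of all genes. CPEB3, which controls cytoplasmic polyadenylation, was at least 13.6-fold higher, with a signal of 117 and no DMSO signal well above background. SAMD4A, which binds messages and brings in CCR4-NOT, was lower, at −1.36 with a second probe at −1.08.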

How the data were processed

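The authors deposited, for each array, the output of Feature Extraction 11.5.1.1 (genome build hg19 in its header), in which the processed signal is a background-subtracted spot intensity on a linear scale with its own error. A deposited table of intensity values held the same signal, within 0.01%, for 99.87% to 99.92% of probes of each array and served only as an alternative. The labels name a linear amplification kit with Cy3, a kind of labelling that starts from the poly(A) tail, so a signal reads transcripts that carry a tail, and the effect of tail length on it was not tested. The paper's methods describe another, red over green array, so nothing but its 2-fold limit was used.

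Control spots and spots marked as outliers were left out (103, 121 and 63 spots for DMSO, cordyceps and sunitinib), repeated spots were averaged, and levels were computed on the log2 scale against the 75th percentile of each array. Of 58201 probes, 31104 were named through a RefSeq table of GRCh38.p14, used for names and promoters only. The brightest probe of a gene was taken, and a gene needed a detected probe, well above background, on the DMSO array or the treated array. A dim signal on the opposite array was replaced by the lowest detected signal there if that was higher, and the fold is then a bound. The median reported error of a probe was 10.2% to 10.4% of its signal. Genes with full values are the 5 highest and 5 lowest of each comparison, the paralogues and genes whose probes differed by more than 1. Genes of the 6 other lists are named when past 2-fold. The members and lists were chosen with earlier results of these data known. In all, 12 alternatives were planned and 1, relative to the median ratio of all genes, was added after seeing the data. They changed the scaling, background correction, filter, choice of probe, outlier spots, streak and fold limit. Python 3.11.15, numpy 2.4.6, pandas 2.3.3, R 4.3.3 and limma 3.58.1 were used, and the scripts were tested on simulated data.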

Additional observations from a re-analysis of the deposited data

How the results depend on the processing

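With 1 array per condition no result has a replicate check, and the number of arrays limits the precision. No paired analysis was possible because each condition had a single array. With a 2-fold limit the counts of members stayed at 0 in all settings of cordyceps, and for sunitinib in all but 2. With a 1.5-fold limit the cordyceps counts were 1 higher and 1 lower, and the sunitinib counts 3 higher and 5 lower. Under array median scaling, the members' median was 0.27 for cordyceps and −0.48 for sunitinib, with 3 members lower by more than 2-fold for sunitinib, and the median of all genes moved to 0.18 and −0.31. In the series matrix, which is not scaled between arrays, the members' medians were −0.21 and −1.22, with 25 members past 2-fold lower for sunitinib, and those of all genes −0.24 and −1.05. Relative to all genes, the sunitinib median lay between −0.39 and −0.14 over the settings, and the cordyceps median between −0.10 and 0.09, with the lower end of both reached without a filter. Of the ratios beyond their limits with sunitinib, 8 of 10 lower ones stayed beyond them in all settings. The others were WDR33, at −0.23 with the mean of its probes, which counts a dim probe as 0, and RBBP6, at −0.21 with normexp. All 7 higher ones were no longer higher beyond their limits in 1 to 4 settings. For CLP1 this was the unscaled series matrix alone, where it came within its limit (−0.25). In that setting CPSF1 (−0.54), CSTF2T (−0.53), PABPC1 (−0.60), PABPC4 (−0.61), CNOT6L (−0.41) and PAN2 (−0.46) were lower beyond their limits. Across the 12 settings, 9 of 37 members kept the sign of their cordyceps ratio and 22 of 37 that of their sunitinib ratio. Over all genes, the split of 2-fold calls moved from 438 higher and 406 lower to 742 and 221 with the array median for cordyceps, and from 969 and 960 to 530 and 1908 for sunitinib. In the series matrix it was 270 and 831, and 158 and 7971. Normexp gave 191 and 186 for cordyceps and 331 and 835 for sunitinib, and no filter 1623 and 970, and 6224 and 1485. Dim genes limit what can be read: 3 members could not be compared, and a signal under 18.2 on the DMSO array, 30.2 on the cordyceps array or 18.3 on the sunitinib array was below every detected probe.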

Other observations

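Downstream of deadenylation, 22 decapping and 5′ to 3′ decay genes were compared. With cordyceps, 1 was more than 2-fold higher (4.55%, against 2.96% of all genes) and 0 lower (against 2.75%). It was LSM4, a subunit of the ring that binds shortened tails, with signals of 591 with DMSO and 1088 with cordyceps (log2 ratio 1.14). Beyond the technical limit 5 were higher (22.7%) and 0 lower, against 15.0% and 13.5% of all genes measured on both arrays, and the median was 0.10. With sunitinib none passed 2-fold, against 6.50% higher and 6.44% lower of all genes, and the median was −0.01. Among 23 genes of the RNA exosome and its cofactors, which decay RNA from the other end, none passed 2-fold with cordyceps (median 0.13). With sunitinib, 19 of the 23 were lower, as were 7231 of the 14918 genes compared. Beyond the limit, 8 were lower (34.8%, against 21.7% of all genes) and 4 higher (17.4%, against 22.7%). The median was −0.31, and MPHOSPH6 was past 2-fold lower (−1.08), which is 4.35%, against 6.44% of all genes. The 33 core spliceosome genes compared, set beside these as another large RNA machine, held none past 2-fold in either comparison. All genes held 2.96% higher and 2.75% lower with cordyceps, and 6.50% and 6.44% with sunitinib. The spliceosome medians were 0.09 and −0.16, and with sunitinib 12 of these genes were higher and 20 lower.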
